A study of Mus musculus with 57 samples.

Results

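The genes described here encode serotonin receptors, chosen by name as Htr1a, Htr1b, Htr2a, Htr2c, Htr3a, Htr3b, Htr4, Htr5a and Htr7. Of these 9 genes, 8 had a probeset annotated to them alone on the array, and Htr1a had 2, so that 9 of 22626 probesets were members. Htr2a had none in the annotation used here and has no value. The set was built around Htr3b, which had been singled out earlier for its relation to ethanol intake over these mice in prefrontal cortex and ventral midbrain. Intake per mouse was not analysed here, so no relation to intake is given, and the values of Htr3b over mice are described without a test.

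The arrays came from individually profiled male C57Bl/6NCrl mice, an inbred strain, that chose between 10% (w/v) ethanol and water for 18 hours per day over 16 sessions. Every mouse had this choice and none was kept free of ethanol, so the comparisons are between brain regions and between mice, not between drinking and abstinent animals. Tissue was taken 6 days after the last session from nucleus accumbens (NAc), ventral midbrain (VMB, which holds the ventral tegmental area and is named VTA in the labels) and prefrontal cortex (PFC). Each region had 19 arrays, 1 per mouse, with replicate numbers between 1 and 20 in the titles; number 10 is absent in NAc, 20 in VMB and 6 in PFC. The labels do not say that a number shared by regions marks the same animal, so a replicate number names an array within its region. The paper describes 19 animals with 1 array for each region, by which the regions share mice. The main fit did not pair the arrays. The labels give no age. The study used the arrays to ask which transcripts vary with voluntary drinking among genetically identical mice.

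Serotonin is released in the forebrain and midbrain by neurons whose cell bodies lie in the raphe nuclei, and it acts on a large receptor family. Most members couple to G proteins: Htr1a, Htr1b and Htr5a encode receptors that act through inhibitory G proteins, Htr2a and Htr2c receptors that activate phospholipase C, and Htr4 and Htr7 receptors that raise cyclic AMP. Htr3a and Htr3b differ from all of these, since they encode subunits of a ligand-gated ion channel that ethanol is known to potentiate.

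As deposited, the arrays of the regions lay on different scales, with array medians between 6.26 and 6.32 in NAc, between 5.79 and 5.86 in VMB and between 5.66 and 5.7 in PFC. All 57 arrays were therefore brought to 1 distribution, and levels below are log2 values on this common scale unless named as deposited. A level is set only against the same probeset in other arrays, never against another probeset. A probeset was kept if its deposited value reached 4.5 on at least 1 array, which kept 19815 probesets and all 9 of the receptors. A difference was called at a limma adjusted p under 0.01 against a minimum difference of 1, and, as a wider rule, at an adjusted p under 0.01 against no difference. Region markers largely followed the labels at the minimum difference. Of the measured markers of striatal projection neurons, 6 of 6 were called higher in NAc than in PFC. Of cortical excitatory neuron markers, 4 of 5 were called lower in NAc than in PFC. Of 8 dopamine neuron markers, 5 were called higher in VMB than in PFC, but 3 were also called higher in NAc than in PFC. In NAc minus VMB, 5 of these 8 were called lower and 1 higher, Nr4a2, with means of 6.88 in NAc and 5.34 in VMB. Oligodendrocyte markers also moved with region, with 7 of 7 called higher in NAc and in VMB than in PFC. The range of their mean level was 9.55 to 9.92 in NAc, 10.50 to 10.86 in VMB and 7.20 to 8.61 in PFC, and its part in the receptor differences was not tested. In dissected tissue, fewer cells of a type and less RNA per cell cannot be told apart. The array titled PFC replicate 20 is called ventral tegmental area in its other fields, and it correlated at a mean r of 0.995 with the other PFC arrays, against 0.942 with VMB arrays and 0.957 with NAc arrays. It was kept as PFC, and leaving it out changed no call of a receptor at the minimum difference.

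Between regions, Htr2c was the receptor that passed the minimum difference. Htr2c was higher in NAc and in VMB than in PFC, while Htr3a was lower in NAc and VMB than in PFC and Htr7 was higher in VMB than in NAc and PFC, these by differences that did not pass the test against the minimum. With the minimum difference of 1, 1 of 9 receptor probesets was called in NAc minus PFC, where 3.62% of all kept probesets were called. In VMB minus PFC 1 of 9 was called, against 6.47% of all, and in NAc minus VMB 0 of 9, against 5.77%. With no minimum, limma called 6 of 9 receptor probesets in NAc minus PFC, against 72.5% of all, with 1 higher (38.6% of all) and 5 lower (33.9% of all). In VMB minus PFC it called 5 of 9, against 72.8% of all, with 3 higher (37.7% of all) and 2 lower (35.2% of all). In NAc minus VMB it called 6 of 9, against 74.7% of all, with 2 higher (39% of all) and 4 lower (35.7% of all). The ranges of the regions did not overlap for 2 of 9 receptor probesets in NAc minus PFC, 3 of 9 in VMB minus PFC and 1 of 9 in NAc minus VMB, where 21.9%, 23.9% and 23.1% of all kept probesets had ranges apart. The median size of the receptor differences was 0.17, 0.30 and 0.27 in the same order of comparisons, against 0.28, 0.30 and 0.31 over all kept probesets. These counts are small and lie near the background, so they are no result about the receptors as a set, and what follows concerns single receptors.

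**Figure D1:**
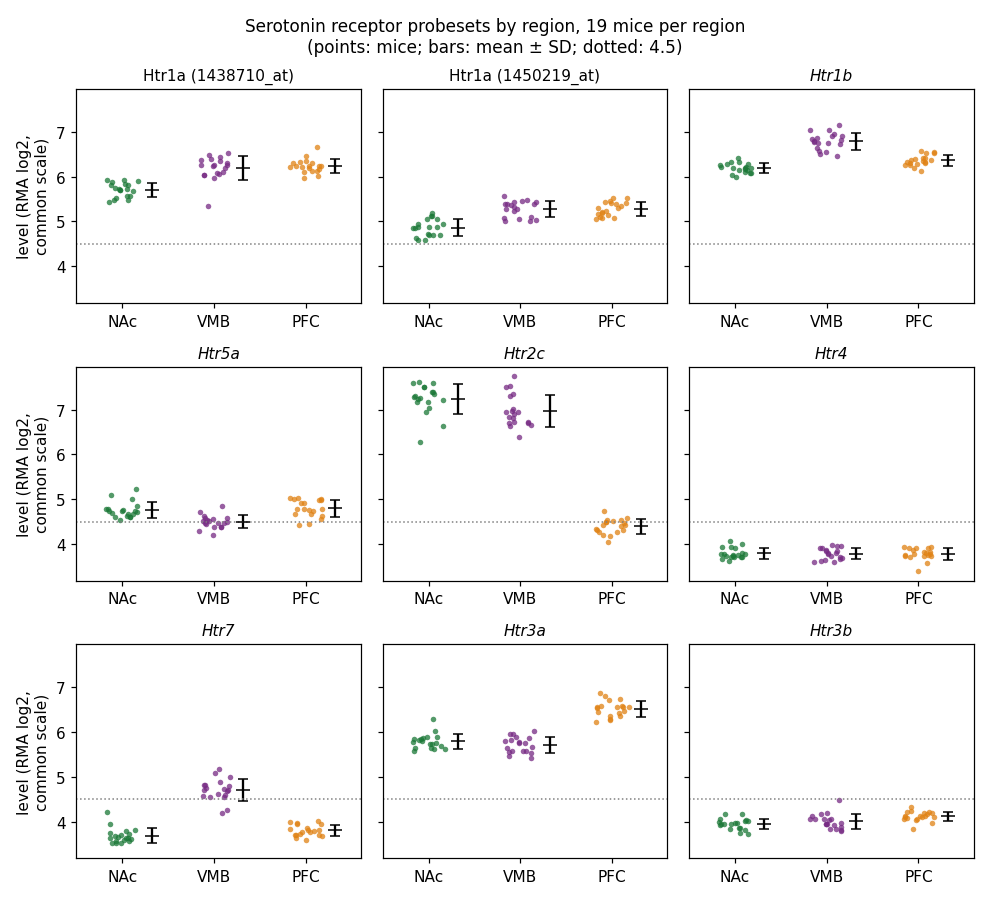
Levels of the 9 serotonin receptor probesets (RMA log2 value on the common scale, vertical axis) in NAc, VMB and PFC, with 1 point per mouse, bars for the mean ± SD (n = 19 per region) and a dotted line at 4.5. Htr2c in PFC, at 4.04 to 4.74, lies wholly under its NAc and VMB levels, Htr7 stands higher in VMB, Htr3a stands higher in PFC, and every Htr3b and Htr4 point lies under the dotted line.

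Htr2c encodes a receptor coupled to phospholipase C that is known for restraining dopamine neuron firing and for its abundance in choroid plexus. Its level in the 19 NAc arrays ran from a lowest of 6.27 through a median of 7.28 to a highest of 7.62. In VMB the lowest, median and highest were 6.40, 6.89 and 7.74, and in PFC they were 4.04, 4.42 and 4.74. Every NAc and every VMB array lay above every PFC array. Its deposited value reached 4.5 on 0 of 19 PFC arrays. The mean was 7.24 ± 0.34 in NAc, 6.97 ± 0.36 in VMB and 4.40 ± 0.16 in PFC (SD, n = 19 each). NAc exceeded PFC by 2.84 (SE 0.09, limma adjusted p = 2.19e-25 against the minimum difference). VMB exceeded PFC by 2.57 (limma adjusted p = 1.09e-22 against the minimum difference). Since the PFC readings lay at or under the cut-off, folds are given as bounds, with PFC values under 4.5 set to 4.5: Htr2c was at least 6.56-fold higher in NAc and at least 5.46-fold higher in VMB. On the deposited scale these differences were 3.59 and 2.77, and with equal array medians 2.97 and 2.61, so that neither call depended on the scale. NAc and VMB overlapped, and their difference of 0.27 had a limma adjusted p of 0.00836 against no difference, which became 0.0144 without the array of VMB replicate 6.

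Htr7 encodes a receptor that raises cyclic AMP and is known for its part in circadian timing and thalamic signalling. Its lowest, median and highest levels were 3.52, 3.65 and 4.23 in NAc, 4.19, 4.71 and 5.17 in VMB, and 3.60, 3.81 and 4.02 in PFC. Every VMB array lay above every PFC array, and 1 NAc array, that of replicate 1, reached into the VMB range. VMB exceeded PFC by 0.90 (SE 0.06, limma adjusted p = 3.67e-21 against no difference). NAc minus VMB was -1.02 (limma adjusted p = 1.55e-23 against no difference), and neither difference passed the test against the minimum. The NAc and PFC readings were under 4.5 on every array of the common scale, so with these set to 4.5 the level in VMB was at least 1.16-fold higher than in NAc or PFC. On the deposited values VMB minus PFC was 1.22 and did pass it, which made 2 receptors called in place of 1. NAc minus PFC was -0.12 (adjusted p = 0.0719), and its sign turned with the scale, being 0.70 on the deposited values and 0.08 with equal medians.

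Htr4 encodes another receptor that raises cyclic AMP, and its probeset read low in every region. Its lowest, median and highest levels were 3.63, 3.76 and 4.07 in NAc, 3.61, 3.79 and 3.98 in VMB, and 3.40, 3.78 and 3.94 in PFC. The ranges overlapped almost fully, and on the common scale every array lay under 4.5. As deposited, 2 NAc arrays, 0 VMB arrays and 0 PFC arrays reached it, and these few readings kept the probeset. The differences were 0.01 for NAc minus PFC, 0.00 for VMB minus PFC and 0.01 for NAc minus VMB, with limma adjusted p of 0.803, 0.967 and 0.836. On the deposited values NAc minus PFC was 0.82, where the median of all kept probesets was 0.72.

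Htr1a encodes the inhibitory autoreceptor of serotonin neurons, which is also found on cortical and hippocampal neurons. Its probesets both read lower in NAc than in VMB or PFC. Probeset 1438710_at had a lowest, median and highest level of 5.44, 5.72 and 5.93 in NAc, 5.35, 6.26 and 6.53 in VMB, and 5.97, 6.24 and 6.66 in PFC. No NAc array reached the lowest PFC array, whereas NAc and VMB overlapped. NAc was lower than PFC by 0.53 (a difference of -0.53, SE 0.06, limma adjusted p = 3.02e-11 against no difference) and VMB minus PFC was -0.04 (adjusted p = 0.548). Probeset 1450219_at had 4.58, 4.87 and 5.19 in NAc, 5.0, 5.33 and 5.56 in VMB, and 5.06, 5.29 and 5.53 in PFC. Here NAc overlapped both other regions, NAc minus PFC was -0.42 (limma adjusted p = 9.15e-10) and NAc minus VMB was -0.42 (adjusted p = 1.02e-09). With equal medians NAc minus PFC was -0.55 and -0.39 for these probesets, both called, and on the deposited values, where the median of all kept probesets was 0.72, it was 0.08 and 0.23. Over all mice of a region the 2 probesets had r = -0.15 in NAc, -0.04 in VMB and 0.10 in PFC. Without the 2 mice farthest from the median of 1438710_at, r was -0.11 in NAc, 0.36 in VMB and 0.63 in PFC. The unadjusted permutation p values were then 0.662, 0.157 and 0.00589. Whether the probesets tracked each other in PFC thus depended on 2 arrays.

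Htr1b encodes a terminal autoreceptor and heteroreceptor that lowers transmitter release. Its lowest, median and highest levels were 5.98, 6.20 and 6.41 in NAc, 6.46, 6.80 and 7.16 in VMB, and 6.14, 6.36 and 6.57 in PFC. Every VMB array lay above every NAc array, and VMB and PFC overlapped at the edge. VMB exceeded PFC by 0.43 (limma adjusted p = 2.75e-12 against no difference), a call that held on all 3 scales. NAc minus VMB was -0.60 (adjusted p = 7.44e-18) and shrank to -0.08 on the deposited values. NAc minus PFC was -0.17 (adjusted p = 0.00083), and was 0.44 on the deposited values, where the median of all kept probesets was 0.72.

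Htr5a, a receptor that lowers cyclic AMP, had a lowest, median and highest level of 4.53, 4.73 and 5.22 in NAc, 4.21, 4.5 and 4.84 in VMB, and 4.43, 4.78 and 5.03 in PFC. All ranges overlapped. VMB minus PFC was -0.30 (limma adjusted p = 2.46e-06 against no difference) and NAc minus VMB was 0.26 (adjusted p = 2.51e-05), while NAc minus PFC was -0.04 (adjusted p = 0.542). The NAc excess over VMB was called on all 3 scales. The VMB deficit against PFC was -0.02 on the deposited values and was not called there. The deposited value reached 4.5 on 19 of 19 NAc, 7 of 19 VMB and 8 of 19 PFC arrays. The differences that involve VMB or PFC thus rest on low signal.

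**Figure D2:**
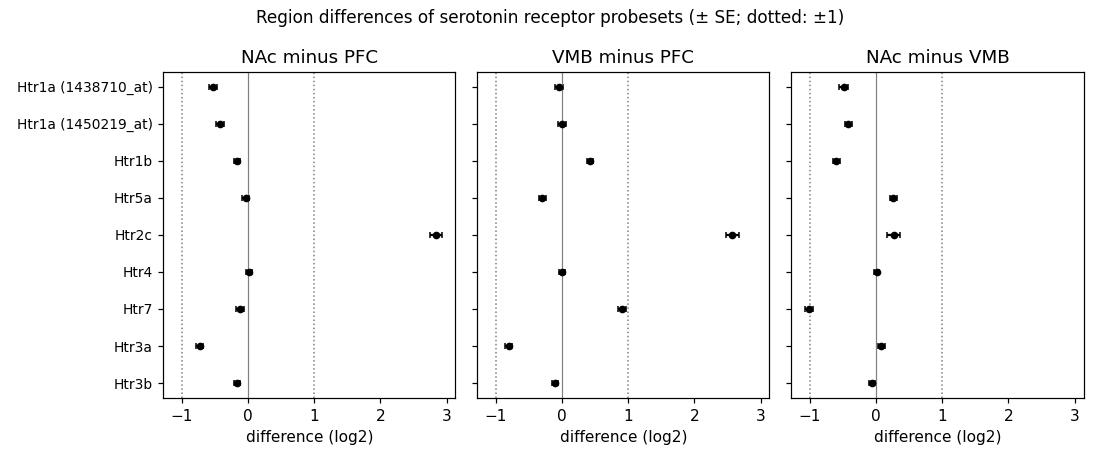
Differences between regions for each receptor probeset (log2, horizontal axis), with NAc minus PFC, VMB minus PFC and NAc minus VMB in separate panels, points for the fitted difference and bars for its standard error; dotted lines mark the minimum difference of 1 in each direction. Htr2c stands at 2.84 and 2.57 in the PFC comparisons, and Htr7 at -1.02 in NAc minus VMB is the other point at a dotted line.

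Htr3a encodes the subunit that every working 5-HT3 channel contains, and in cortex it marks a class of inhibitory interneurons. Its lowest, median and highest levels were 5.58, 5.79 and 6.3 in NAc, 5.43, 5.75 and 6.02 in VMB, and 6.23, 6.55 and 6.88 in PFC. No VMB array reached the lowest PFC array, and among NAc arrays the highest reached just above it. VMB was lower than PFC, with a difference of -0.81 (SE 0.06, limma adjusted p = 3.59e-20 against no difference) that was called on all 3 scales. NAc minus PFC was -0.73 (adjusted p = 3.93e-18) and kept its sign on every scale, but on the deposited values it was -0.14 with an adjusted p of 0.0139. NAc minus VMB was 0.08 (adjusted p = 0.191). Markers of interneurons that carry the 5-HT3 receptor went both ways: of 9 measured, 4 were called lower at the minimum difference in NAc than in PFC, and 4 were called lower and 1 higher in VMB than in PFC. The range of their mean level was 7.24 to 7.50 in NAc, 6.81 to 7.36 in VMB and 7.95 to 8.14 in PFC. Vip, a peptide of some of these interneurons, had differences of -2.33 for NAc minus PFC and -4.27 for VMB minus PFC, and Calb2, a calcium-binding protein of others, had differences of 0.60 and 3.14. The part of such cells in the Htr3a difference was not tested.

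Htr3b encodes the subunit that joins Htr3a in heteromeric 5-HT3 channels and changes their conductance. The 2 genes are neighbours on chromosome 9 with no protein-coding gene between them. Htr3b read low in all regions, with a lowest, median and highest level of 3.73, 3.95 and 4.17 in NAc, 3.80, 3.97 and 4.5 (just under the cut-off) in VMB, and 3.84, 4.12 and 4.33 in PFC. The ranges overlapped in every comparison, and on the common scale 0 of 57 arrays reached 4.5. As deposited, 6 NAc arrays, 1 VMB array and 0 PFC arrays reached it, and these few readings are what kept the probeset. The mean was 3.95 ± 0.12 in NAc, 4.01 ± 0.17 in VMB and 4.12 ± 0.11 in PFC (SD, n = 19 each). NAc minus PFC was -0.17 (limma adjusted p = 0.000323 against no difference), which was -0.01 with equal medians and 0.61 as deposited, so that its direction rests on the scale. VMB minus PFC was -0.11 (adjusted p = 0.019), which passed 0.01 with array weights (adjusted p = 0.0051). NAc minus VMB was -0.06 (adjusted p = 0.179). VMB minus PFC was likewise 0.02 with equal medians and 0.17 as deposited.

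Over mice, Htr3b and Htr3a are given as a description. Their correlation was r = 0.116 (rho = 0.067) in NAc, r = 0.449 (rho = 0.435) in VMB and r = 0.00615 (rho = 0.032) in PFC, over 19 mice each. The NAc value was 0.389 on the deposited values. The array of VMB replicate 6 had the highest VMB level of both genes, 6.02 for Htr3a and 4.5 for Htr3b. The VMB value without this array was not computed. Between regions, over 18 replicate numbers each, Htr3b had r = 0.137 for NAc with PFC, -0.295 for VMB with PFC and 0.138 for NAc with VMB. The VMB with PFC value was 0.0111 without the 2 numbers farthest from the median VMB level.

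The array of VMB replicate 6 stood apart in several receptors, and its choroid plexus transcripts were high. Ttr, which encodes transthyretin and is the leading transcript of choroid plexus, read 11.44 on this array and 6.21 to 7.56 on the other 18 VMB arrays. Of 7 measured choroid plexus markers, 5 were highest on it among VMB arrays, and their mean was 5.60, against 4.46 to 4.75 on the other arrays. Htr3b was 4.5 on this array, its highest value in any region, against 3.80 to 4.19 on the others. Htr1a (1438710_at) was 5.35, its lowest, against 5.97 to 6.53. Htr5a and Htr3a were also highest there and Htr7 lowest, so that of 9 receptor probesets 3 were highest and 2 lowest on this array, where 9.02% and 7.61% of all kept probesets were. Htr2c, which choroid plexus is known to contain in plenty, was 6.67 there, inside the 6.40 to 7.74 of the others. The correlation of Htr3b with Ttr in VMB was r = 0.738 over 19 mice and 0.286 without replicate 6 (rho = 0.430 and 0.329), and that of Htr1a (1438710_at) with the choroid plexus mean was -0.743 over 19 mice and -0.049 without it. Without this array the SD of Htr3b in VMB was 0.12, against 0.17 with it, and VMB minus PFC was -0.14 with a limma adjusted p of 0.00129 against no difference. Taking out the highest Htr3b reading must lower the VMB mean, and the array was left out after seeing the data. This p thus adds no support to a difference.

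**Figure D3:**
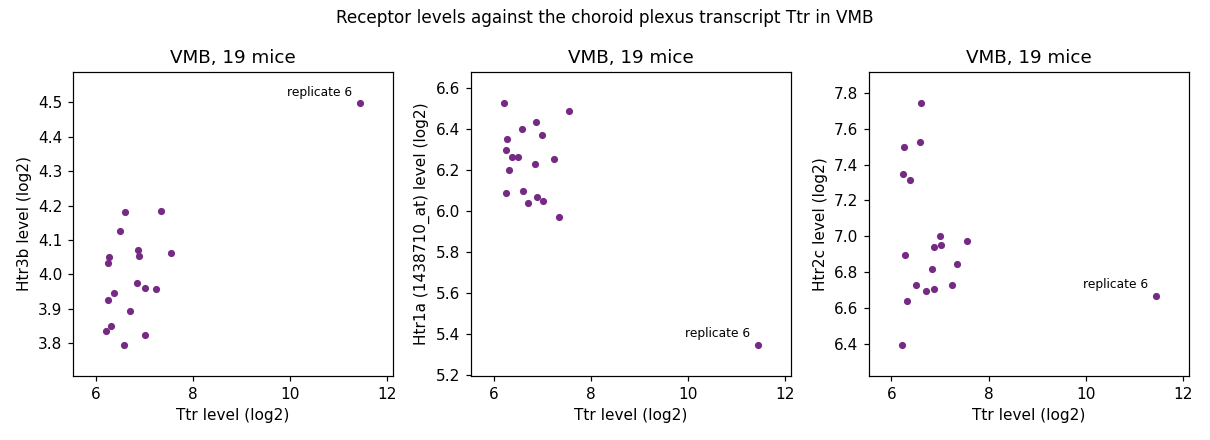
Levels of Htr3b, Htr1a (1438710_at) and Htr2c in VMB (log2, vertical axes) against the level of the choroid plexus transcript Ttr (log2, horizontal axis), 1 point per mouse (n = 19). Replicate 6, at a Ttr level of 11.44, is the highest point for Htr3b and the lowest for Htr1a, and lies inside the range of the others for Htr2c.

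Among the receptors, Htr2c varied most over mice within NAc and within VMB. Its SD of 0.34 in NAc and 0.36 in VMB was exceeded by 5.63% and 5.03% of all kept probesets in those regions. In NAc the low end was set by replicate 1 at 6.27 and replicate 19 at 6.64. These, with replicate 6, were the 3 NAc arrays farthest from the NAc median along the first principal component, and without them the lowest, median and highest NAc levels were 6.95, 7.32 and 7.62 (n = 16) and the SD was 0.196, which 17.8% of kept probesets exceeded over the same arrays. Htr7 was also unusual in NAc replicate 1, at 4.23, against 3.52 to 3.95 in the other NAc arrays.

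In NAc, mice with a lower Htr2c level had a higher mean of the 7 choroid plexus markers, r = -0.594 (permutation p = 0.00787, adjusted over 3 regions 0.0236; rho = -0.632, p = 0.00448). With the 2 mice farthest from the median of the marker mean left out, r was -0.643. These were replicates 20 and 16, both with low marker means, so replicates 1 and 19 stayed in. Without the 3 NAc arrays named above it was -0.384 with an adjusted p of 0.335, so that the call rests on them. The relation was r = -0.295 in VMB (p = 0.223; rho = -0.212) and r = 0.079 in PFC (p = 0.747; rho = 0.063). By this test no positive relation was called in any region, though r in PFC was positive. The marker mean was low, at 3.99 to 4.26 in NAc and 3.80 to 4.01 in PFC, under the cut-off of 4.5. Htr2c in PFC also read low, at 4.04 to 4.74. The values in NAc and PFC thus rest in large part on low signal. With Ttr alone, which read 5.29 to 6.17 in NAc, the relation was counted as unchanged in each region. Choroid plexus tissue as a source of Htr2c was not tested.

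In VMB, mice with a higher Htr2c level also had a higher Htr7 level. All 84 pairs of receptor probesets within a region, Htr3b left out, were tested after the values had been seen, and by r this was the 1 pair with an adjusted p under 0.05 (r = 0.751, permutation p = 0.00021, adjusted p = 0.0176, n = 19). By Spearman's rho it was 0.670 (p = 0.0023, adjusted p = 0.0913). Leaving out any 1 mouse kept r between 0.702 and 0.790, and leaving out the 2 farthest gave 0.740. The mice were not evenly spread: 5 had Htr2c at 7.32 or above with Htr7 between 4.83 and 5.17, and the other 14 had Htr2c at 7.0 or below with Htr7 between 4.19 and 4.81. Within those 14 mice r was 0.512 (permutation p = 0.066; rho = 0.229, p = 0.428), over fewer mice and a narrower range of Htr2c. By rho the 1 pair with an adjusted p under 0.05 was another, Htr1a (1438710_at) with Htr5a in PFC (rho = 0.771, permutation p = 0.00019, adjusted p = 0.016; r = 0.598, permutation p = 0.00562, adjusted p = 0.157). Its r was 0.807 without the 2 mice farthest from the median Htr1a level, and leaving out any 1 mouse gave 0.527 to 0.814. Htr5a read low in PFC, at 4.43 to 5.03. Without adjustment 12 of the 84 pairs had a permutation p under 0.05 by r.

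Marker lists moved with these receptors too. Htr2c in NAc, and Htr2c and Htr7 in VMB, were set against the mean of each of 10 marker lists, 30 relations chosen after the values had been seen, of which 6 had an adjusted p under 0.05 by r and 4 by rho. Htr2c was lower in mice with a higher microglia mean in NAc (r = -0.760, permutation p = 7e-05, adjusted p = 0.0021; rho = -0.653, adjusted p = 0.0445; -0.589 without the 2 farthest mice) and in VMB (r = -0.594, permutation p = 0.00744, adjusted p = 0.0393; rho = -0.607, adjusted p = 0.0498). The NAc arrays of replicates 1 and 19, with the lowest Htr2c levels, had the highest microglia means there, 8.50 and 8.38. The NAc relation without the arrays of replicates 1, 6 and 19 was not tested. In VMB the mean of the interneuron list was higher in mice with higher Htr2c (r = 0.625, permutation p = 0.00342, adjusted p = 0.0256; rho = 0.685, adjusted p = 0.0445). It was also higher in mice with higher Htr7 (r = 0.691, permutation p = 0.0019, adjusted p = 0.0256; rho = 0.568, adjusted p = 0.0764; 0.403 without the 2 farthest mice). The list did not move as 1 group between regions: Calb2 averaged 10.42 in VMB and 7.29 in PFC, and Vip 5.55 and 9.82. Its mean is thus no measure of such interneurons in VMB. Htr7 in VMB was lower in mice with a higher choroid plexus mean (r = -0.611, permutation p = 0.0031, adjusted p = 0.0256; rho = -0.475, adjusted p = 0.209), and r was -0.242 without the 2 farthest mice. The remaining relation is that of Htr2c with the choroid plexus mean in NAc, given above. Their part in the relation of Htr2c with Htr7 was not tested.

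**Figure D4:**
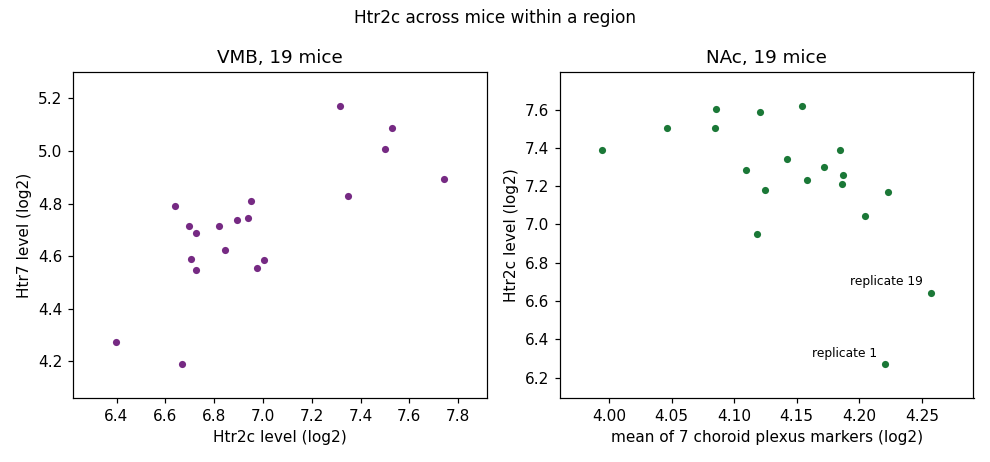
Left, Htr7 level (log2) against Htr2c level (log2) in VMB; right, Htr2c level (log2) against the mean of 7 choroid plexus markers (log2) in NAc, 1 point per mouse (n = 19 in each panel). On the left 5 mice stand apart at the upper right; on the right replicates 1 and 19 hold the lowest Htr2c levels, 6.27 and 6.64.

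Between regions, arrays were also matched by replicate number. Whether a number marks 1 animal is not stated, so these values say nothing firm about mice. Of 24 correlations between regions, each over 18 numbers with Htr3b left out, 10 were positive and r ranged from -0.511 to 0.361. None had an adjusted p under 0.05 by r or rho, and 1 by r and 2 by rho had an unadjusted permutation p under 0.05. The lowest was Htr5a between VMB and PFC (r = -0.511, permutation p = 0.0287, adjusted p = 0.69; rho = -0.559, p = 0.0173). The highest was Htr4 between NAc and VMB (r = 0.361, permutation p = 0.14, rho = 0.416). Without the 2 numbers farthest from the median NAc level its r was 0.070 (permutation p = 0.798).

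The remaining serotonin receptors on the array, Htr1d, Htr1f, Htr2b, Htr5b and Htr6, gave 0 of 5 calls at the minimum difference in any comparison. With no minimum, 1 was higher and 2 lower in NAc minus PFC (38.6% and 33.9% of all kept probesets). In VMB minus PFC 0 were higher and 4 lower (37.7% and 35.2% of all). In NAc minus VMB 4 were higher and 0 lower (39% and 35.7% of all). These counts are small and are no result about the receptors as a set. Htr2b, Htr5b and Htr6 averaged under 4.5 in every region, so their differences rest on low signal. Htr1d, a relative of Htr1b, differed most among them, with a mean of 5.19 in NAc, 4.66 in VMB and 4.63 in PFC, and NAc minus PFC of 0.56 (limma adjusted p = 4.22e-17 against no difference).

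Several genes that make, carry and break down serotonin were higher in VMB. Of 11 measured, 3 were called higher and 0 lower in VMB than in PFC at the minimum difference, 1 higher and 0 lower in NAc than in PFC, and 0 higher and 2 lower in NAc than in VMB. In the same order, 6.47%, 3.62% and 5.77% of all kept probesets were called in either direction. Slc6a4, the serotonin transporter, averaged 4.16 ± 0.16 in NAc, 7.32 ± 0.53 in VMB and 3.83 ± 0.12 in PFC (SD, n = 19 each), and VMB exceeded PFC by 3.50 (limma adjusted p = 9.91e-31 against the minimum difference). Ddc, the decarboxylase shared by serotonin and dopamine synthesis, averaged 6.86 in NAc, 9.36 in VMB and 5.0 in PFC. Qdpr, which regenerates the cofactor of both syntheses, averaged 11.61 in NAc, 12.38 in VMB and 10.78 in PFC. Of the serotonin neuron markers, 2 of 4 measured were called higher in VMB than in PFC, Slc6a4 and the transcription factor Gata3. The mean of these 4 ran from 5.38 to 6.03 in VMB, against 4.28 to 4.56 in PFC. Htr1a, the autoreceptor of such neurons, had VMB minus PFC differences of -0.04 and -0.0031, neither of them called.

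Of the genes whose products couple to or bind these receptors, 14 were measured. At the minimum difference 0 were called higher and 1 lower in NAc minus PFC, 1 higher and 1 lower in VMB minus PFC, and 1 higher and 1 lower in NAc minus VMB. In the same order, 3.62%, 6.47% and 5.77% of all kept probesets were called in either direction. Gnaq, a G protein subunit through which Htr2c acts, averaged 5.14 in NAc, 5.63 in VMB and 6.47 in PFC. It was called lower in NAc than in PFC (limma adjusted p = 1.39e-05 against the minimum difference), the direction opposite to that of Htr2c. Gna11, another subunit of the list, averaged 8.96 in NAc, 8.37 in VMB and 8.78 in PFC. Its NAc minus PFC was 0.18 (limma adjusted p = 3.75e-05 against no difference). Plcb1, a phospholipase C downstream of Gnaq, averaged 6.99 in NAc, 5.45 in VMB and 7.22 in PFC, and Plcb4, another, averaged 5.41 in NAc, 7.77 in VMB and 5.87 in PFC. S100a10, an adaptor that binds the Htr1b and Htr4 receptors, averaged 7.24 in NAc, 8.0 in VMB and 8.05 in PFC, and was not called at the minimum difference in any comparison.

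The probesets most like each receptor over all 57 arrays are given by Pearson's r, as a description, since the arrays share 3 regions. For Htr2c they were Klhl13, Scg2 and Ap1s2, with r of 0.968, 0.967 and 0.964. For Htr7 they were Slc6a9, a glycine transporter, at 0.947, Ret at 0.938 and Ebf3 at 0.937. For Htr3a they were Rtn4r at 0.930 and Rilpl1 and Sort1, both at 0.925. With each region's mean taken out, r was 0.183 for Htr2c with Klhl13, 0.637 for Htr7 with Slc6a9 and 0.509 for Htr3a with Rtn4r, so that the likeness of Htr2c to Klhl13 lay between regions far more than between mice. Htr5a had no close match, its highest r being 0.706.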

How the data were processed

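RNA from single mice and regions was hybridised to Affymetrix mouse arrays, 1 array per mouse and region. The authors summarised each probeset with RMA and deposited the log2 values; the genome build is not given in the sources used here. Probesets were named through GEO's platform annotation, updated through RefSeq (GRCm38.p6): 20380 had 1 symbol, 691 several and 1555 none. No sequence is printed, since probe and protein sequences were not used here.

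Probesets with a deposited value of at least 4.5 on 1 or more arrays were kept (19815; 2811 removed). All 57 arrays were quantile normalized together, and 1 limma model (limma 3.58.1, R 4.3.3) with region as its term gave all differences. Calls used treat with a minimum difference of 1 and Benjamini-Hochberg adjusted p under 0.01 over all kept probesets, and limma's test against 0 as the wider rule. In simulated data for NAc minus PFC, with 200 of 19815 probesets changed, the minimum-difference test found 0% of changes of 0.5 and 98% of changes of 1.5. Folds are bounds, taken with readings of the lower region under 4.5 set to 4.5. Correlations over mice used 100000 permutations, two-sided, and Benjamini-Hochberg adjustment within each family (Python 3.11.15, numpy 2.4.6, scipy 1.17.1). The number of arrays limits the precision.

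Groups came from the titles. The replicate number as a block was an alternative to the fit without it. Named genes were every member probeset and, from the serotonin, coupling and marker lists, those called or marking a region. The members and lists were chosen with earlier results of these data known. Alternatives were the deposited scale, equal array medians, no filter, no minimum difference, the block, array weights, and leaving out single arrays, the array with conflicting labels or 3 NAc arrays; leaving out the VMB array of replicate 6 was added after seeing the data.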

Additional observations from a re-analysis of the deposited data

How the results depend on the processing

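Of 349 recomputed values, 302 were counted as unchanged. Tested values had to keep their direction and their side of the threshold, and counts to stay near the main count. Untested correlations had only to move little, whatever their sign. Htr3b between NAc and PFC, with r = 0.137 and rho = -0.046, was thus counted as unchanged. On the deposited scale, where the median of all kept probesets moved by 0.72 in NAc minus PFC, 0.18 in VMB minus PFC and 0.55 in NAc minus VMB, 2876 probesets were called in NAc minus PFC and 2196 in NAc minus VMB, against 717 and 1144 on the common scale, and 2 receptor probesets in VMB minus PFC. The deposited scale turned NAc minus PFC of Htr1a (0.076 and 0.23), Htr1b (0.44), Htr3b (0.61), Htr5a (0.66) and Htr7 (0.70), VMB minus PFC of Htr1a (0.089 and 0.22) and Htr3b (0.17), and NAc minus VMB of Htr1a 1450219_at (0.012) and Htr3b (0.44). Equal array medians turned NAc minus PFC of Htr5a (0.034) and Htr7 (0.082) and VMB minus PFC of Htr1a 1450219_at (0.058) and Htr3b (0.018). Array weights gave adjusted p of 0.0051 for Htr3b in VMB minus PFC and 0.0074 for Htr7 in NAc minus PFC against no difference, and turned Htr4 in NAc minus PFC (-0.033) and VMB minus PFC (-0.037). With no minimum difference 14374, 14433 and 14798 probesets were called in NAc minus PFC, VMB minus PFC and NAc minus VMB, and 6, 5 and 6 receptor probesets. With region means taken out, arrays that share a replicate number were little alike. Their mean correlation was 0.056 for NAc with PFC, 0.013 for VMB with PFC and 0.071 for NAc with VMB. In the same order, 2, 1 and 2 of 18 numbers correlated best with their own. These values compare different tissues, so they cannot show whether a number marks 1 animal. The replicate block kept 1, 1 and 0 receptor calls at the minimum difference, and against no difference gave Htr3b in VMB minus PFC an adjusted p of 0.00788 and Htr2c in NAc minus VMB 0.0105. Without the array of VMB replicate 6, VMB minus PFC was 0.0054 for Htr1a 1438710_at and -0.0045 for Htr4. Leaving out each array in turn, the differences near 0 changed sign: VMB minus PFC between -0.060 and 0.0054 and between -0.019 and 0.012 for the Htr1a probesets and between -0.019 and 0.012 for Htr4, whose NAc minus PFC lay between -0.0096 and 0.021 and NAc minus VMB between -0.0055 and 0.020. Htr2c with the choroid plexus markers in NAc was -0.384 (adjusted p 0.335) without the 3 NAc arrays. Htr3a with Htr3b in NAc was 0.389 on the deposited values. The cause of these changes was not tested. Htr3b and Htr4 read under 4.5 on all 57 arrays of the common scale, so their differences rest on low signal.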
